A study of Homo sapiens with 15 samples.

Results

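The insulin receptor, the adaptor proteins that dock on it and the proteins that switch it off were followed as 10 genes in HepG2, a human liver cancer cell line. The genes are INSR, IRS1, IRS2, SHC1, GRB2, GRB10, GRB14, PTPN1, INPPL1 and SOCS3. They were taken by symbol from a table of 39133 genes, and each symbol had 1 row. RNA was measured in 15 libraries in 5 groups of 3: untreated control cells, cells given palmitate, and cells given palmitate together with sodium butyrate at 0.5, 1 or 1.5 mM, called low, medium and high below. The labels state palmitate as 200 mM, and it is not known whether that unit was meant. All groups are wild-type HepG2 from a single supplier, grown in DMEM with fetal bovine serum, carry the same batch label and were harvested at 48 h. According to the library names, the palmitate group had palmitate for 48 h, whereas in each butyrate group 24 h of palmitate came first and 24 h with butyrate followed, and exposure to palmitate by itself was therefore not the same. There is no group with butyrate only, and the cells carry the genome of a tumour line rather than that of normal hepatocytes. The series text calls the 3 libraries of a group biological replicates, without saying how the cultures were separated, so a p-value here speaks of library-to-library spread alone, which may be technical.

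Insulin binds the receptor encoded by INSR, a tyrosine kinase that then phosphorylates docking proteins. IRS1 and IRS2 carry the signal to PI3-kinase and AKT, which in liver restrain glucose output and favour lipid and glycogen storage, while SHC1 and GRB2 carry it to RAS and ERK. GRB10 and GRB14 bind the active receptor and hold it back, PTPN1 (the phosphatase PTP1B) removes its phosphates, INPPL1 (the phosphatase SHIP2) consumes the lipid that PI3-kinase makes, and SOCS3 blocks or degrades IRS proteins. Palmitate is a saturated fatty acid used to model insulin resistance, and butyrate is a short-chain fatty acid that inhibits histone deacetylases.

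The labelled cell type was checked first. All 9 hepatocyte markers were detected. Their summed level was 26632 to 28510 CPM (counts scaled to a common library size) in control and 28393 to 31267 with palmitate. It was 32878 to 35775 at low, 33824 to 35067 at medium and 25401 to 29121 in high. Single markers moved in opposite directions within that sum. ALB and AFP had means of 2915 and 2016 CPM in high, against 6308 and 4812 with palmitate. APOA1 and APOB were higher in high, at 1680 and 8889 CPM against 838 and 5092. The summed level of 5 stromal markers was 1.53 to 2.47 CPM in control and palmitate and 5.57 to 8.04 in low and medium. It was 21.8 to 24.0 CPM in high, where COL1A1 made up most of it. DCN, LUM and COL3A1 were there at 0, at most 0.0798 and at most 0.159 CPM. PDGFRB was detected in every group, with means of 2.11 CPM in control, 1.58 with palmitate, 4.10 at low, 4.36 at medium and 6.16 in high. The summed level of 4 endothelial markers was 4.25 to 7.17 CPM in control and palmitate. It was 9.90 to 11.4 CPM at low, 9.51 to 11.5 at medium and 10.998 to 14.2 in high. KDR was at or below 0.0427 CPM in every library. PECAM1 and VWF had means of 11.1 and 0.848 CPM in high, against 4.43 and 0.137 in control. CDH5 was lower in high than in control, at 0.406 against 1.72 CPM. Of 5 immune markers, PTPRC, CD3E and CD68 stayed at or below 0.206 CPM in every library, and LYZ gave nearly all of the summed 947 to 2848 CPM. That sum was 2253 to 2390 CPM in control, 2058 to 2644 with palmitate and 947 to 1021 in high. CD14 was higher with butyrate, with means of 0.631 CPM in control, 0.690 with palmitate, 2.93 at low, 3.22 at medium and 3.82 in high. The summed level of 4 bile duct markers was 526 to 624 CPM outside the high group and 951 to 993 CPM within it. KRT19 alone made that rise, with a mean of 194 CPM in palmitate and 735 in high. EPCAM went the other way, from 239 to 101 CPM. KRT7 ran from 0 to 5.24 CPM within palmitate and was at most 0.0399 CPM in high. Its means were 4.11 CPM in control, 5.56 at low and 5.64 at medium. SOX9 was at 125 and 131 CPM. Genes on the mitochondrial chromosome, ribosomal RNAs included, took 8.55% to 8.83% of counts in control, 8.62% to 10.4% with palmitate, 9.53% to 10.8% in low, 9.14% to 11.3% at medium and 11.5% to 14.0% in high. The mitochondrial share and the stromal, endothelial, immune and bile duct sums thus stood apart in high from control and palmitate, as did most results below, and their part in those results was not tested. In bulk RNA, fewer cells of a type and less RNA per cell cannot be told apart. Palmitate library 1 differed most from the others of its group, with a chi-square per gene of 55.5 and 30.9. Palmitate libraries 2 and 3 gave 17.3. Pairs gave 5.17 to 7.49 in control, 6.70 to 16.9 in low, 6.20 to 21.3 in medium and 7.31 to 18.9 in high. Total counts ran from 35349827 to 61086976 per library.

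The stretches before the start sites of 5 of the genes are shown because these are the receptor, its main docking protein and the 3 genes of the 10 with the largest changes at high butyrate. INSR, IRS1 and INPPL1 were lower there, and GRB2 and PTPN1 were higher. Sequences are from RefSeq (GRCh38.p14), 5′ to 3′ on the strand of the gene, ending where the RefSeq start site or the earlier GENCODE 29 gene start lies. For INSR, IRS1 and INPPL1 the bases just after that RefSeq start were not found in a GENCODE 29 transcript of the gene. Their positions are chr19:7294415-7294664 on the minus strand for INSR, chr2:226799821-226800070 on the minus strand for IRS1, chr17:75405710-75405928 on the minus strand for GRB2, chr20:50510133-50510320 on the plus strand for PTPN1 and chr11:72223313-72223562 on the plus strand for INPPL1. Capitals mark GC boxes, the letters GGGCGG or, on the other strand, CCGCCC, where neighbouring matches can share bases.
INSR: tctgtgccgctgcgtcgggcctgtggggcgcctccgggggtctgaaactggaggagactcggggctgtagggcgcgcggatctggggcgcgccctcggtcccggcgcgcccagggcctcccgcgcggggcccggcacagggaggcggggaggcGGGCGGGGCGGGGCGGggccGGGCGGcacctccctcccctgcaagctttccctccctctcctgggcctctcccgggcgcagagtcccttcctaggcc
IRS1: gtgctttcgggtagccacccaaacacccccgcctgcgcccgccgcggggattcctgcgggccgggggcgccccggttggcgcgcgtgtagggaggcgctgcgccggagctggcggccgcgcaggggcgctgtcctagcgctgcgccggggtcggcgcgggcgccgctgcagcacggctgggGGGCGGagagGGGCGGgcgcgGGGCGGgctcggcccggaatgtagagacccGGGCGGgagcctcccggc
GRB2: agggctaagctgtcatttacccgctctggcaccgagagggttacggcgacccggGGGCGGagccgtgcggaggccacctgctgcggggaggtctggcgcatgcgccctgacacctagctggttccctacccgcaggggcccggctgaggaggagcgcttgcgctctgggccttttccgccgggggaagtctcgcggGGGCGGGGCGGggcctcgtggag
PTPN1: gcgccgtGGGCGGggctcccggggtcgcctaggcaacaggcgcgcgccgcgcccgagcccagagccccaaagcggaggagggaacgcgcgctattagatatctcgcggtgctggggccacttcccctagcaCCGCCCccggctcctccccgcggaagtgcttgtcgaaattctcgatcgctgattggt
INPPL1: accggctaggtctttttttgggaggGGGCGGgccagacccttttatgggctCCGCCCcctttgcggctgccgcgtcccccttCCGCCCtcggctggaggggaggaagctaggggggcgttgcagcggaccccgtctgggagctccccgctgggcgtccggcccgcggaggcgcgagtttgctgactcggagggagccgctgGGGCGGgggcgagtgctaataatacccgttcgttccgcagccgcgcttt
The INSR and IRS1 stretches held 4 GC boxes each, GRB2 held 3, PTPN1 held 2 and INPPL1 held 4, so genes that were higher and genes that were lower at high butyrate both carry them. The stretch shown for INPPL1 lies before the first start site listed, and those before its other start sites held 6 and 2. RefSeq gives 19 windows of 250 bases before a start site for the 10 genes. A GC box was found in 12 of these windows (63.2%), against 42.6% of all 35116 such windows. The 12 windows belong to 9 genes, so they are not separate genes. Their GC content was 61.6% to 82%, against a median of 58% over all windows, and base composition was not matched. The CCAAT box, searched on both strands, was in 6 of the 19 (31.6%) against 32.0% of all windows. The letters TGTTTAC, a core that FOXO factors bind, were in 0 of the 19 against 2.98% of all, and the E-box CACGTG was in 0 against 6.34%. These are matches of letters in a window, not measured binding.

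Levels per gene length were compared with the FPKM values that the authors deposited (counts scaled to gene length and library total). In control cells GRB2 was highest at 41.9 ± 0.327 FPKM (SD, n = 3), followed by SHC1 at 40.2 ± 1.47, PTPN1 at 18.5 ± 0.846 and IRS1 at 13.5 ± 0.297. INPPL1 (8.35 ± 0.524 FPKM) and the receptor INSR (6.28 ± 0.327 FPKM) came next, then GRB14 at 2.40 ± 0.340 FPKM. GRB10 (0.573 ± 0.0570 FPKM), SOCS3 (0.488 ± 0.0700) and IRS2 (0.339 ± 0.0427) were lowest. The order of the 10 group means was the same in control, palmitate, low and medium. At high butyrate INPPL1 dropped from the fifth to the seventh place, below INSR and GRB14, and SOCS3 stood above GRB10. The highest mean was 123 times the lowest in control and 246 times the lowest at high butyrate. The counts behind these levels were fewest at the bottom of the order, where a library held 102 to 174 counts of IRS2 and 36 to 80 of SOCS3, against 8091 to 16925 of GRB2.

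**Figure D1:**
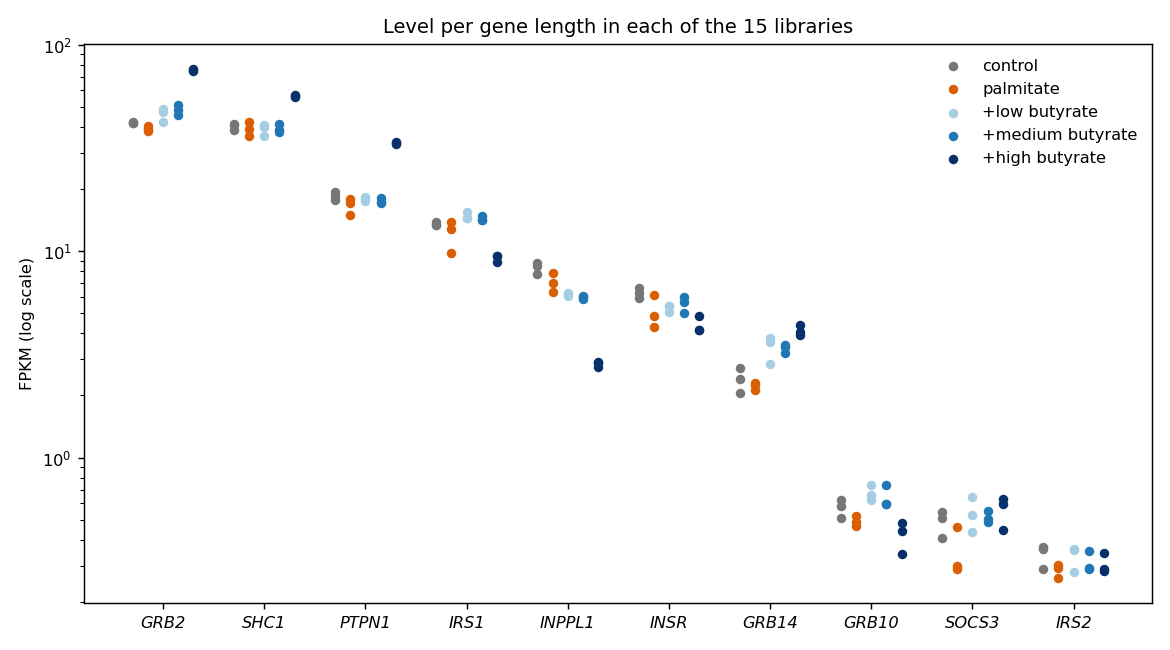
FPKM of each gene (logarithmic axis) in the 15 libraries, genes ordered by their control mean and dots coloured by group, 3 dots a group. GRB2, SHC1 and PTPN1 sit highest in the high-butyrate libraries, INPPL1 lowest there, and GRB10, SOCS3 and IRS2 lie below 1 FPKM in every library.

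Palmitate against control asked what the fatty acid alone does. None of the 10 genes was called, where 0.108% of all tested genes were (22 of 20309, edgeR quasi-likelihood test, adjusted p under 0.05). At an unadjusted p under 0.05 edgeR had 2894 genes (14.2%), and DESeq2 called 335 genes (1.65%). INSR was at 72.5, 67.6 and 64.2 CPM in control libraries 1 to 3 and at 49.997, 67.0 and 55.1 CPM in palmitate. The second palmitate library lay inside the control range and the other 2 below it, and the log2 difference was -0.25 (SE 0.0901, adjusted p = 0.217). INPPL1 was at 51.7, 57.5 and 55.6 CPM in control and at 45.0, 52.1 and 48.0 CPM in palmitate, again with overlap at the second palmitate library (log2 difference -0.18, SE 0.0649, adjusted p = 0.212). Without palmitate library 2 both were called, INSR at a log2 change of -0.38 (adjusted p = 0.0120, range over its alternatives 0.0120 to 0.520) and INPPL1 at -0.24 (adjusted p = 0.0380, range 0.0380 to 0.478). Without that library 1175 genes were called in all, and without palmitate library 1 there were 219. No other alternative called INSR or INPPL1. Palmitate library 1 had the strongest fitted trend with gene length and GC content. The SD of that trend on the log2 scale was 0.215 there, 0.0489 in library 2 and 0.114 in library 3. Its part in the 2 calls was not tested. GRB2 was the 1 gene of the 10 whose libraries did not overlap, at 196 to 199 CPM in control and 192 to 195 in palmitate, a gap that occurred in 16.1% of all tested genes. Its log2 difference was -0.03 (95% interval -0.16 to 0.09, adjusted p = 0.853). SOCS3 had the widest interval of the 10, at a log2 difference of -0.41 (95% interval -0.88 to 0.06).

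The receptor gene INSR (ENSG00000171105, chromosome 19, 7112255 to 7294034, GRCh38) differed from palmitate by less than the spread of the libraries at low and medium butyrate and was lower at high. It was at 59.97, 58.2 and 55.0 CPM in the 3 low libraries, at 65.3, 60.7 and 55.4 in medium and at 44.2, 42.4 and 49.1 in high. The high libraries lay below every other library, but the gap to the lowest palmitate library, at 49.997 CPM, was small. The log2 difference from palmitate was 0.01 at low (95% interval -0.17 to 0.19, adjusted p = 0.947) and 0.08 at medium (95% interval -0.10 to 0.25, adjusted p = 0.506). At high, INSR fell 1.27-fold against palmitate (log2 change -0.34, SE 0.0908, adjusted p = 0.00205) and 1.34-fold against medium (log2 change -0.42, SE 0.0910, adjusted p = 0.000509). The call against palmitate was lost with library totals as the only scaling (log2 -0.21, adjusted p = 0.0661) and with limma on log2(FPKM + 1) or log2(FPKM + 0.1) (adjusted p = 0.133 and 0.126, range over its alternatives 3.02e-06 to 0.133). Without palmitate library 2 the fall was -0.23 on the log2 scale (adjusted p = 0.0174), and without that library INSR was also called higher at medium (log2 change 0.20, adjusted p = 0.0453, range 0.0453 to 0.920). Against control the fall at high was 1.51-fold, and it was called in each of 16 alternatives. In the order of group means, high lay below palmitate, low, medium and control, and only the step from high to palmitate had libraries that did not overlap.

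IRS1 (ENSG00000169047, chromosome 2, 226731317 to 226799759), the main docking protein of the receptor, went in both directions with dose. Its level was 141, 133 and 133 CPM in control, 105, 140.4 and 134 with palmitate, 148, 153 and 145 at low, 143, 139 and 151 at medium and 92.4, 84.1 and 88.4 in high. The high libraries were the lowest of all 15, and palmitate library 1 stood apart from the other 2 of its group. At low butyrate IRS1 rose 1.17-fold against palmitate (log2 change 0.23, SE 0.0798, adjusted p = 0.0210). That call was lost without palmitate library 1 (log2 0.11, adjusted p = 0.128), without low library 2 (adjusted p = 0.0624) and with only those 2 groups in the fit (adjusted p = 0.0968, range over its alternatives 0.00278 to 0.128). At medium the log2 difference was 0.19 (SE 0.0798, adjusted p = 0.0535), and 8 of 16 alternatives called it, among them DESeq2 (adjusted p = 0.0454, range 0.00760 to 0.335), leaving out palmitate library 2 (adjusted p = 0.00760) and leaving out palmitate library 3 (adjusted p = 0.0404). At high, IRS1 fell 1.43-fold against palmitate (log2 change -0.52, SE 0.0803, adjusted p = 5.96e-06) and 1.63-fold against medium (log2 change -0.71, SE 0.0805, adjusted p = 1.69e-07). Both falls were called in every alternative run, and on the log2(FPKM + 1) scale the first was -0.34. The group means rose in the order high, palmitate, control, medium and low, and only high stood clear of its neighbour.

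IRS2 (ENSG00000185950, chromosome 13, 109752698 to 109786568), the other docking protein of liver, was low and was not called in any comparison. Its level was 2.40, 2.99 and 2.92 CPM in control, 2.65, 2.42 and 2.25 with palmitate, 2.34, 2.91 and 2.89 at low, 2.91, 2.36 and 2.40 at medium and 2.29, 2.17 and 2.64 in high. All neighbouring groups overlapped. IRS2 shares 115 exon bases with an antisense gene, AL162497.1, that was not analysed here. The log2 difference of high from palmitate was -0.04, with a 95% interval of -0.36 to 0.28 (adjusted p = 0.837), and that of palmitate from control was -0.19 (95% interval -0.50 to 0.13). The FPKM of IRS1 was 40.4 ± 6.41 times that of IRS2 within control libraries and 30.5 ± 2.91 times at high butyrate (SD, n = 3), and the 3 high ratios, 27.2 to 32.8, overlapped only with the lowest palmitate ratio of 32.4.

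SHC1 (ENSG00000160691, chromosome 1, 154962298 to 154974395), the adaptor that recruits GRB2 to the receptor, was higher at high butyrate, and its other groups overlapped. It was at 169.8, 179 and 176 CPM in control, 168, 185 and 178 with palmitate, 161, 172 and 177 at low, 168, 162 and 183 at medium and 242, 229 and 228 in high. The 4 other groups overlapped one another and all lay below high. SHC1 rose 1.32-fold against palmitate (log2 change 0.40, SE 0.0634, adjusted p = 9.75e-06) and 1.37-fold against medium (log2 change 0.45, SE 0.0635, adjusted p = 3.41e-06). At low and medium the log2 differences from palmitate were -0.06 (95% interval -0.19 to 0.06) and -0.05 (95% interval -0.18 to 0.07). With the length and GC trend of each library removed, both were called lower (adjusted p = 0.0457 and 0.0410, ranges over alternatives 0.0457 to 0.985 and 0.0410 to 0.969). SHC1 shares 335 exon bases with PYGO2 on the same strand, whose counts were 13.7% of those of SHC1, and the deposited counts do not show how shared reads were assigned. Its pseudogene SHC1P2 had 3 counts in all libraries, against 132168 for SHC1.

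GRB2 (ENSG00000177885, chromosome 17, 75318076 to 75405709), the adaptor that links SHC1 and IRS proteins to RAS activation, rose against palmitate at each dose. It was at 195, 193 and 192 CPM with palmitate, 203, 227 and 221 at low, 228, 212 and 244 at medium and 345, 337 and 331 in high. Every butyrate library lay above every palmitate and control library, low and medium overlapped, and high stood clear above both. The rise against palmitate was 1.12-fold at low (log2 change 0.17, SE 0.0621, adjusted p = 0.0293), 1.18-fold at medium (log2 change 0.24, SE 0.0621, adjusted p = 0.00268) and 1.75-fold at high (log2 change 0.81, SE 0.0623, adjusted p = 1.60e-10). The call at low was lost without palmitate library 3 (adjusted p = 0.0767), without low library 2 or 3 (adjusted p = 0.105 and 0.0922), with no filter on low counts (0.0854) and with only those groups in the fit (0.0769, range 0.00329 to 0.105). The calls at medium and high held in each of 16 alternatives.

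GRB10 and GRB14 encode related adaptors that bind the active receptor and inhibit it, and they differed in course. GRB14 (ENSG00000115290, chromosome 2, 164492812 to 164621848) was at 8.26, 6.10 and 7.17 CPM in control, 6.86, 6.99 and 6.99 with palmitate, 8.72, 11.2 and 10.8 at low, 9.63, 10.4 and 10.4 at medium and 12.8, 11.1 and 11.4 in high. All 9 butyrate libraries were above all 6 libraries without butyrate. GRB14 rose 1.47-fold against palmitate at low (log2 change 0.56, SE 0.114, adjusted p = 0.000359), 1.46-fold at medium (log2 change 0.55, SE 0.114, adjusted p = 0.000417) and 1.69-fold at high (log2 change 0.76, SE 0.113, adjusted p = 3.88e-06). Each of these calls held in all 16 alternatives. High against medium was not called (log2 difference 0.21, SE 0.112, adjusted p = 0.111), though 5 alternatives called it, the lowest being the fit with the length and GC trend removed (log2 0.40, adjusted p = 0.00421, range 0.00421 to 0.325).

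GRB10 (ENSG00000106070, chromosome 7, 50590063 to 50793462) was at 6.19, 5.70 and 4.99 CPM in control, 5.49, 4.62 and 5.01 with palmitate, 7.37, 6.05 and 6.44 at low, 5.85, 7.14 and 5.91 at medium and 4.21, 3.15 and 4.43 in high. Low and medium lay above palmitate, and high lay below all other groups, so its course resembled that of IRS1 and not that of GRB14. GRB10 rose 1.31-fold at low (log2 change 0.39, SE 0.139, adjusted p = 0.0230), a call lost without palmitate library 2 (adjusted p = 0.0768), palmitate library 3 (0.0563) or low library 1 (0.111, range 0.00924 to 0.111). At medium the log2 difference was 0.32 (SE 0.140, adjusted p = 0.0573), and 6 of 16 alternatives called it, including the fit without palmitate library 1 (adjusted p = 0.0379, range 0.0229 to 0.261). At high, GRB10 fell 1.28-fold against palmitate (log2 change -0.36, SE 0.143, adjusted p = 0.0294). That call was lost in 9 of 16 alternatives, among them without palmitate library 1 (adjusted p = 0.0848) and without high library 2 (log2 -0.22, adjusted p = 0.182, range 0.0147 to 0.227). Against medium GRB10 fell 1.61-fold (log2 change -0.68, SE 0.142, adjusted p = 0.000328), a call that held in all 16. On the log2(FPKM + 1) scale, which understates changes of low genes, its changes were 0.17 at low, -0.07 at high and -0.21 against medium.

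PTPN1 (ENSG00000196396, chromosome 20, 50510321 to 50585241), the phosphatase that dephosphorylates the receptor, overlapped between all groups below the high dose and had the largest rise of the 10 genes at it. It was at 79.3, 71.1 and 74.4 CPM in control, 65.0, 73.4 and 72.5 with palmitate, 73.8, 69.8 and 73.7 at low, 73.1, 68.0 and 71.1 at medium and 130.04, 127 and 127 in high. The 12 libraries of the first 4 groups overlapped between 65.0 and 79.3 CPM, and the 3 high libraries were well above them. Against palmitate the log2 differences were 0.04 at low (95% interval -0.08 to 0.17) and 0.01 at medium (95% interval -0.11 to 0.13). At high PTPN1 rose 1.82-fold (log2 change 0.87, SE 0.0627, adjusted p = 5.43e-11), and by 1.81-fold against medium (log2 change 0.86, SE 0.0628, adjusted p = 2.16e-10). Both held in all 16 alternatives. An antisense gene, AL133230.1, shares 138 exon bases with PTPN1 and had 0.279% of its counts, and whether the counting used strand is not given in the sources used here.

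INPPL1 (ENSG00000165458, chromosome 11, 72223701 to 72239105), the lipid phosphatase that opposes PI3-kinase, had the largest change of the 10 genes, a fall that was larger at high than at the lower doses. Below the palmitate values given above, it was at 42.3, 39.5 and 40.7 CPM in low, 40.03, 38.9 and 39.2 at medium and 17.7, 17.96 and 17.6 in high. Low and medium overlapped each other and lay below every palmitate library, and high lay far below both. The fall against palmitate was 1.19-fold at low (log2 change -0.25, SE 0.0654, adjusted p = 0.00366), 1.23-fold at medium (log2 change -0.30, SE 0.0655, adjusted p = 0.000664) and 2.73-fold at high (log2 change -1.45, SE 0.0680, adjusted p = 4.28e-14). Against control the high group was 3.09-fold lower. PHOX2A on the other strand shares 29 exon bases with INPPL1 and had 0.00696% of its counts. These calls held in all 16 alternatives, and with the length and GC trend removed the low and medium falls were larger, at -0.46 and -0.52, while on the log2(FPKM + 1) scale the low fall was -0.16 (adjusted p = 0.0479, range 3.81e-07 to 0.0479). SOCS3 (ENSG00000184557, chromosome 17, 78356778 to 78360077), the suppressor induced by cytokines, was near the lower limit of what these libraries resolve. It was at 1.13, 1.39 and 1.48 CPM in control, 1.37, 0.799 and 0.857 with palmitate, 1.47, 1.74 and 1.20 at low, 1.38, 1.49 and 1.35 at medium and 1.60, 1.16 and 1.61 in high. All neighbouring groups overlapped, and palmitate library 1 lay with the butyrate libraries. The log2 difference of high from palmitate was 0.53 (95% interval 0.06 to 1.00, adjusted p = 0.0520), and 8 of 16 alternatives called it, among them those without palmitate library 1 (log2 change 0.80, adjusted p = 0.00688) and without high library 2 (adjusted p = 0.0261, range 0.00688 to 0.187). SOCS3 was likewise called without palmitate library 1 at low (adjusted p = 0.0113, range 0.0113 to 0.228) and at medium (adjusted p = 0.0150, range 0.0150 to 0.281), and at low also without low library 3 (adjusted p = 0.0473).

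**Figure D2:**
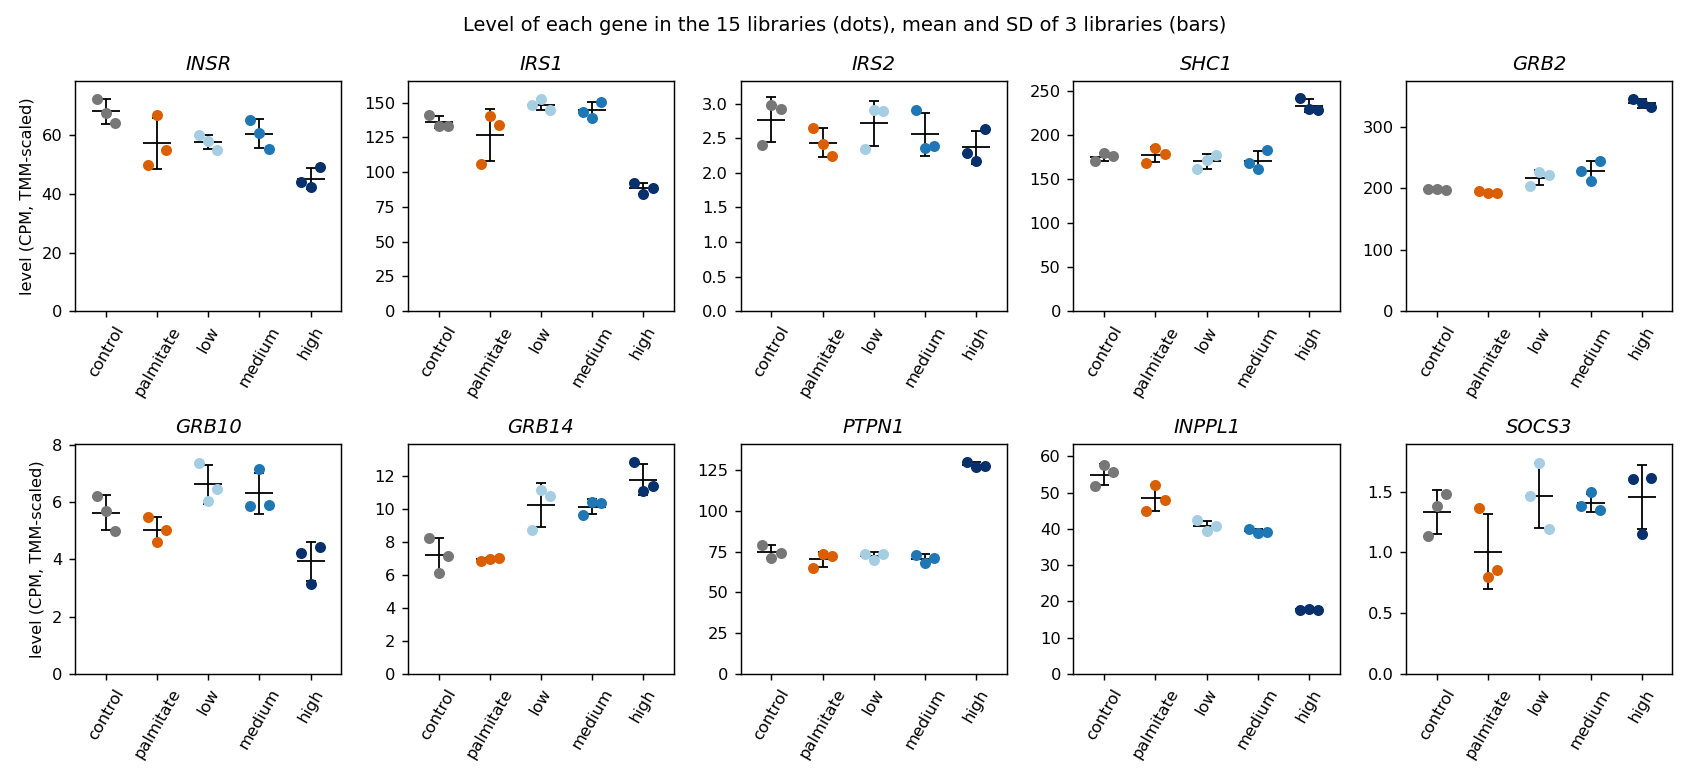
Level in CPM (linear axis from 0) of each gene in the 15 libraries, with dots for libraries and a bar with the mean and SD of 3 libraries for each group. PTPN1, SHC1 and GRB2 are highest and INPPL1, IRS1 and INSR lowest in the high group, while GRB14 is already raised at low and IRS2 overlaps throughout.

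Low against palmitate and medium against palmitate asked how these genes stood at the lower doses, and both share the 3 palmitate libraries with the high comparison. At low butyrate GRB14, GRB10, IRS1 and GRB2 were higher and INPPL1 was lower, by 1.12-fold to 1.47-fold. That is 5 of 10 genes called, where 49.9% of all tested genes were, 4 higher (25.9% of all genes) and 1 lower (24% of all genes). The libraries of those same 5 genes did not overlap, which held for 53.6% of all genes. At medium GRB14 and GRB2 were higher and INPPL1 lower, 3 of 10 where 51.5% of all genes were called, with 2 higher (27.1% of all) and 1 lower (24.4% of all). Libraries of 4 genes did not overlap at medium, the fourth being GRB10, where 53.7% of all genes had none. The median absolute log2 difference of the 10 genes was 0.20 at low and 0.21 at medium, against 0.38 and 0.40 over all tested genes, and 0.28 and 0.29 over the 11241 genes whose average log2 CPM was 2 or more. Medium against low gave no call among the 10 genes and none among all genes tested with edgeR (0%) or DESeq2, and 490 genes (2.41%) had an unadjusted p under 0.05 in edgeR. None of the 10 had libraries that did not overlap between low and medium, against 8.15% of all genes, and their log2 differences ran from -0.09 for IRS2 to 0.07 for GRB2.

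High against palmitate, high against medium and high against control asked about the top dose. At high butyrate PTPN1, GRB2, GRB14 and SHC1 rose against palmitate, by 1.32-fold to 1.82-fold, and INPPL1, IRS1, GRB10 and INSR fell, by 1.27-fold to 2.73-fold. The RNA of the receptor and of the main docking protein was thus lower, with the INSR call lost in 3 of 16 alternatives. The RNA of the phosphatases PTPN1 and INPPL1, both brakes, went in opposite directions. The 8 genes called were read against 71.6% of all tested genes, the 4 higher against 37.7% and the 4 lower against 33.8%, and the 8 whose libraries did not overlap against 72.1%, so their share was near that of all genes. The median absolute log2 change of the 10 genes was 0.53, against 0.76 over all tested genes and 0.58 over those whose average log2 CPM was 2 or more. Against medium 7 genes were called (55.6% of all genes), 3 higher (26.9% of all) and 4 lower (28.7% of all), and 8 did not overlap (63.6% of all). The eighth was GRB14, whose lowest high library, at 11.1 CPM, lay above the highest medium library, at 10.4. Against control 8 genes were called (70% of all genes), 4 in each direction (36.9% of all genes higher and 33.1% lower), and 8 did not overlap (75.2%). They were the genes called against palmitate, with folds of 1.33 for SHC1, 1.43 for GRB10, 1.51 for INSR, 1.54 for IRS1, 1.64 for GRB14, 1.71 for GRB2 and PTPN1 and 3.09 for INPPL1.

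**Figure D3:**
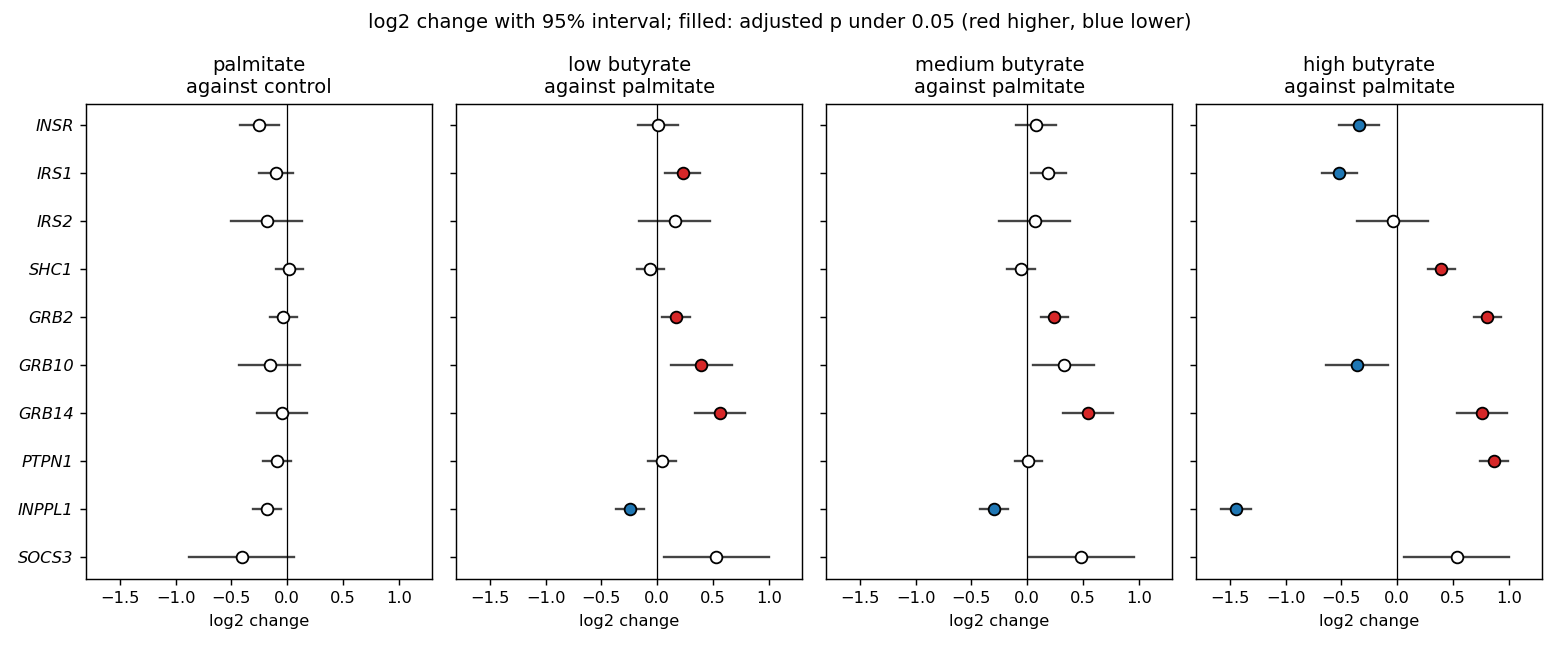
log2 change of each gene in 4 comparisons, with 95% intervals from the standard error and the normal quantile. Dots are filled where the adjusted p was under 0.05 (red higher, blue lower). No dot is filled for palmitate against control, 5 are at low, 3 at medium and 8 at high, where PTPN1 at 0.87 and INPPL1 at -1.45 are farthest from 0.

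Ratios of FPKM within a library show how receptor, adaptors and brakes stood to each other without any scaling between libraries. PTPN1 stood at 2.95 ± 0.144 times INSR in control, 3.32 ± 0.328 with palmitate, 3.37 ± 0.196 at low, 3.15 ± 0.252 at medium and 7.63 ± 0.594 in high (SD, n = 3). The high libraries ran from 6.95 to 8.04 and the other 12 from 2.82 to 3.59. INPPL1 stood at 1.33 ± 0.138 times INSR in control, 1.40 ± 0.106 with palmitate, 1.17 ± 0.0498 at low, 1.08 ± 0.0788 at medium and 0.649 ± 0.0544 in high, so it exceeded the receptor in every library except the 3 high ones. GRB2 was 3.10 ± 0.0877 times IRS1 in control, 3.29 ± 0.555 with palmitate, 3.10 ± 0.174 at low, 3.36 ± 0.104 at medium and 8.14 ± 0.334 in high. SHC1 against IRS1 gave 3.26 ± 0.362 in palmitate and 6.10 ± 0.162 in high. GRB10 was 0.221 ± 0.0215 times GRB14 in palmitate and 0.102 ± 0.0159 in high, where all 3 libraries lay below the other 12. IRS1 against INSR was 2.16 ± 0.0754 in control, 2.39 ± 0.206 with palmitate, 2.78 ± 0.0980 at low, 2.60 ± 0.301 at medium and 2.12 ± 0.161 in high. The high libraries, at 1.94 to 2.26, overlapped those of control, at 2.10 to 2.24, and lay just below the lowest palmitate ratio, at 2.27.

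**Figure D4:**
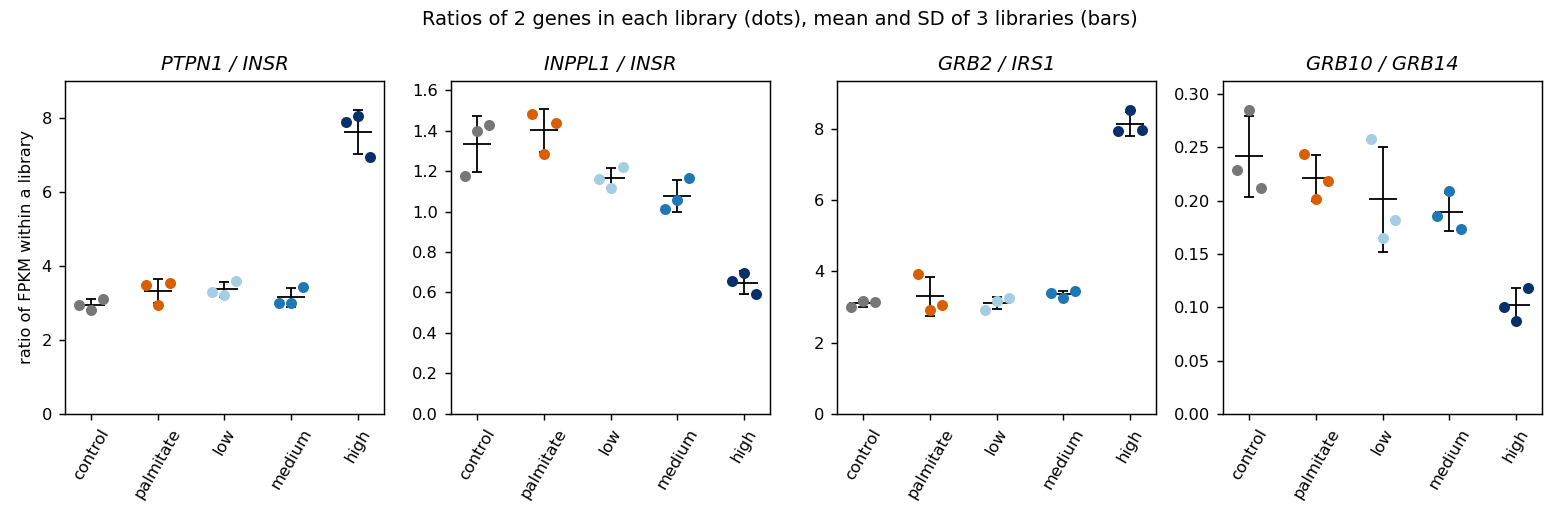
Ratio of the FPKM of 2 genes within each library (linear axis from 0), dots for libraries and bars for the mean and SD of 3. PTPN1 to INSR and GRB2 to IRS1 are above 6.9 and 7.9 in all high libraries, and INPPL1 to INSR and GRB10 to GRB14 are lowest there.

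Around these 10 genes, 87 others of the pathway were listed by role, 86 were in the table and 81 were tested. None was called in palmitate against control (0.108% of all genes) or in medium against low (0%). Against palmitate 19 were higher and 27 lower at low, where 25.9% and 24% of all tested genes were. At medium 21 were higher and 25 lower, against 27.1% and 24.4% of all tested genes, and at high 28 and 36, against 37.7% and 33.8%, which are also the shares to set beside the lists that follow. At high, the 21 other brakes gave 6 higher and 12 lower, with a median log2 change of -0.24, the 17 other adaptors tested gave 9 and 6 (median 0.27), the 21 genes of the PI3K-AKT branch 4 and 7 (median -0.08) and the 14 of the RAS-ERK branch 5 and 8 (median -0.23). The median over all tested genes was 0.06, and over those whose average log2 CPM was 2 or more it was -0.20, near the medians of the other brakes and of the RAS-ERK branch. Of 3 tested ligands and related receptors 1 was higher and 1 lower, and of 5 targets that insulin represses through FOXO1, 3 were higher and 2 lower. The 3 higher ones had at most 3.41 CPM in the high group mean.

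Among well-expressed genes of these lists, the largest falls at high were those of IGFBP1, TRIB3 and INPP5D. IGFBP1, a secreted IGF-binding protein and FOXO1 target, was at 527 ± 120 CPM in palmitate and 59.9 ± 7.31 in high (8.81-fold lower, adjusted p = 2.26e-11). TRIB3, a pseudokinase reported to bind AKT, went from 150.5 ± 8.21 to 26.2 ± 0.988 CPM (5.74-fold lower, adjusted p = 1.31e-17). INPP5D, the SHIP1 phosphatase related to INPPL1 and best known from blood cells, went from 206 ± 31.3 to 43.8 ± 2.12 CPM (4.70-fold lower, adjusted p = 1.08e-15). Among the rises named, PIK3R3, a regulatory subunit of PI3-kinase, went from 11.6 ± 0.170 to 29.4 ± 1.27 CPM (2.54-fold), and the phosphoinositide phosphatase INPP5K from 8.33 ± 0.671 to 16.3 ± 0.378 CPM (1.96-fold). These genes were also named in high against medium, and DUSP6, an ERK phosphatase, was named in place of INPP5K in high against control, at 149 ± 6.68 CPM in control and 315 ± 31.1 in high. At low and medium the SHC family adaptor SHC2 had the largest rise, from 3.16 ± 0.103 CPM in palmitate to 7.19 ± 0.481 and 7.65 ± 0.391, and was at 3.48 ± 0.193 in high. The phosphatase PTPRF rose at both doses, to 642 ± 35.4 and 643 ± 16.7 CPM from 422 ± 97.3. With at most 3 rises named per comparison, the kinase MAPK3 (ERK1) was named at low (1.53-fold) and the receptor IGF1R at medium (1.53-fold). IGF1R was also called higher at low (1.49-fold). SOS2, an activator of RAS, TRIB3 and the suppressor SOCS6 fell most at both doses, SOS2 by 1.83-fold and 1.89-fold, TRIB3 by 1.61-fold and 1.64-fold and SOCS6 by 1.53-fold and 1.61-fold.

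**Figure D5:**
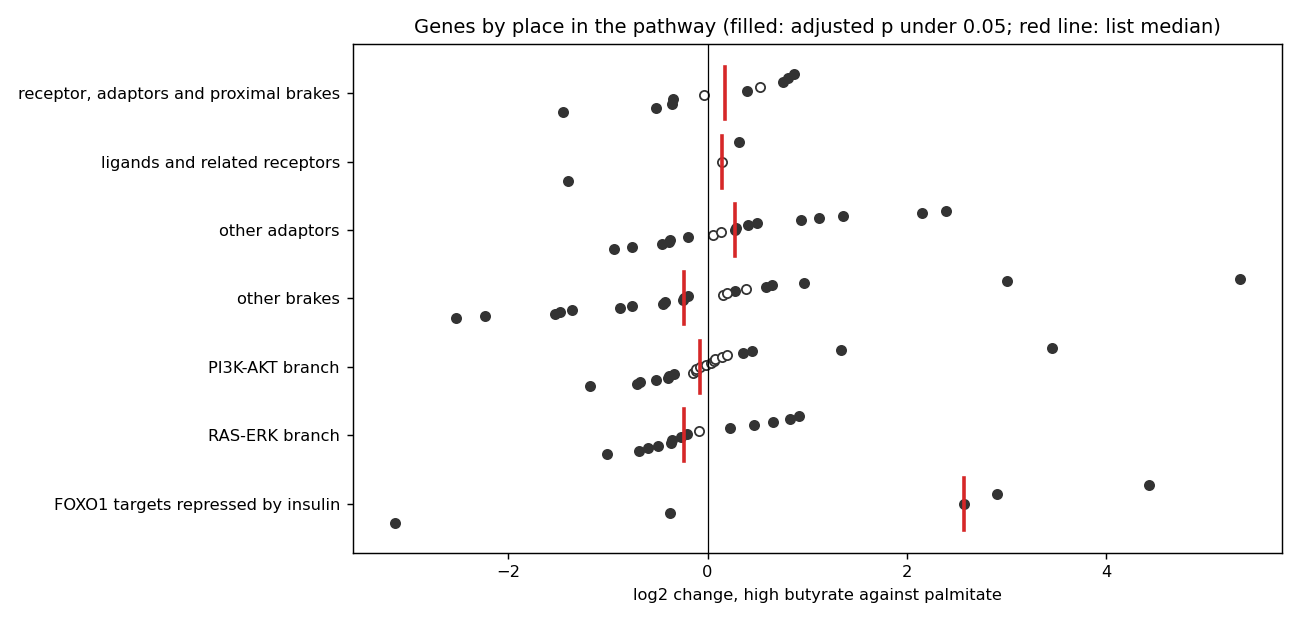
log2 change of high butyrate against palmitate for the 10 genes (top row) and 6 other lists of the insulin pathway, 1 dot a gene, filled where the adjusted p was under 0.05, with the list median in red. Every row has filled dots on both sides of 0, and the list medians lie between -0.24 and 0.27 except that of the 5 FOXO1 targets, at 2.58.

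The genes most alike in course were sought over the 15 libraries by Pearson's r of log2 CPM, given as a description, since the libraries fall into dose groups that all genes share. INPPL1 was closest to ARHGEF40 and IGF2BP1 (both r = 0.99), GRB2 to TTPAL and ALAD (both 0.99) and PTPN1 to VCL and LUZP1 (both 0.99). IRS1 was closest to TM9SF4 (0.99) and LRP4 (0.98), SHC1 to ASCC2 and GLDC (both 0.97), INSR to LPP and PRKDC (both 0.96), GRB14 to AKAP12 and ELL2 (both 0.95) and GRB10 to EDEM1 (0.91) and FBLIM1 (0.90). Among the 10 genes themselves, GRB2 and INPPL1 ran most opposite (r = -0.97, n = 15 libraries), and SHC1 and PTPN1 (0.94) and GRB2 and PTPN1 (0.92) most together. GRB10 and GRB14 had an r of -0.14, and IRS1 and IRS2 one of 0.32.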

How the data were processed

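Poly(A) RNA of HepG2 cells was made into 15 paired-end libraries and run on a DNBSEQ-T7, per the labels' protocols. The authors' table, as deposited, has unnormalized counts for each Ensembl gene next to FPKM values. The FPKM that the authors deposited matched count over gene length and library total within 1% for 11013 of 11013 genes whose lowest count was 100 or more. HISAT2, featureCounts, FastQC and DESeq2 appear in the submitters' processing notes with no version, as do GRCh38 and hg38. Annotation release and strand setting are not given in the sources used here. Counts from 1 to 20 were even in 69.2% of cases, against 50.5% from 100 to 1000, as when each mate of a pair is counted. Totals were 35349827 to 61086976, and intervals cover the spread between libraries.

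Genes kept by filterByExpr (20309, all 10 members among them) were scaled by TMM and fitted over all 15 libraries in 1 quasi-likelihood model (edgeR 4.0.16, R 4.3.3). The common biological coefficient of variation was 8.88%. Adjusted p is the Benjamini-Hochberg value over all tested genes, called under 0.05. The SE was derived from that test and the 95% interval from the SE and the normal quantile. These intervals are narrower than the quasi-likelihood test implies. For SOCS3 in medium against palmitate the interval was 0.01 to 0.96, while the unadjusted p of that test was 0.0571. CPM were computed on the TMM-scaled totals. The 7 comparisons share libraries, and p-values were not adjusted across them. Same-numbered libraries were checked for pairing: their deviations correlated at r = -0.06 to 0.05 across genes, so no strong shared deviation was seen. That cannot show whether same-numbered cultures were handled together. The pipeline was tested on simulated counts.

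The members, the pathway lists and the markers were chosen with earlier results of these data known. All members were named in every comparison. Of the other lists, up to 3 called rises and 3 falls with the largest fold and an average log2 CPM of at least 2 were named per comparison, and for each member called at high the 2 genes with the highest r. A result that this rule names is not reported here. Positions are from GENCODE 29. Alternatives were DESeq2 (1.42.0), its size factors, library totals alone, other low-count filters, only the groups compared, the replicate block, limma (3.58.1) on log2(FPKM + 1) and log2(FPKM + 0.1) and leaving out each library. Removing a spline of gene length and GC content in each library was added after seeing the data and covered the 19960 genes with a GC value. Python 3.11.15 with pandas 2.3.3, numpy 2.4.6 and matplotlib 3.10.9 made the summaries and figures.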

Additional observations from a re-analysis of the deposited data

How the results depend on the processing

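Of 70 values for the 10 genes (7 comparisons), 54 stayed on their side of the threshold in all alternatives, and of 1120 values under alternatives 23 lost and 40 gained a call. No called value changed sign, and 38 values that were not called did. The whole-table count for palmitate against control was the least stable: 22 genes, but 600 when low counts were not filtered, 335 with DESeq2, 43 with the length and GC trend removed, 40 with library totals alone, 9 and 7 on log2(FPKM + 1) and log2(FPKM + 0.1), 3 with only the groups compared and 4 to 1175 without single libraries. The cause was not tested. Among the 10 genes that comparison gave 0 to 2 calls without single libraries, and among the other pathway genes 0 to 8, and 5 with no filter. Low against palmitate (5 of the 10 called) gave 3 with only the groups compared and 3 to 5 without single libraries. Medium against palmitate (3 called) gave 5 with DESeq2, library totals, at least 1 CPM in 3 libraries, log2(FPKM + 0.1) or the trend removed, 6 on log2(FPKM + 1) and 3 to 5 without single libraries. Medium against low (0 genes) gave 39 with no filter and 1 on log2(FPKM + 1), on log2(FPKM + 0.1) and with only the groups compared. With the replicate block 15 genes were called for palmitate against control and 14489 for high against palmitate, and members called stayed at 0, 5, 3, 8, 0, 7 and 8 over the 7 comparisons. Without single libraries high against palmitate had 8 members called each time but not always the same ones, since without palmitate library 1 or high library 2 GRB10 was not called and SOCS3 was. Other scalings moved the median of all genes in high against palmitate from 0.06 to 0.10 (size factors), 0.19 (totals) and 0.27 (trend removed) on the log2 scale. Depth limits IRS2 and SOCS3, whose intervals are the widest.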
